A study of Homo sapiens with 4 samples.

Results

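The genes described here had low or no read counts in LNCaP95 prostate cancer cells relative to their counts in the UGT2B17 knockout derivative of those cells, LN95(KO). They were selected on these same RNA-Seq counts. Counts of each library were scaled to CPM, the counts divided by the gene reads of that library and scaled to a common total, and a gene was taken as a member when its mean in LN95(KO) was at least 1 CPM and its mean in LNCaP95 was at most 1/16 of that. Of 60880 genes counted, 101 met these values, and 96 remained after 5 (HPGD, ST6GALNAC1, KLK2, TMPRSS11E and AURKB) were set aside. Because the difference between the lines chose the members, their folds are a description and carry no test.

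LNCaP95 cells descend from LNCaP, an androgen-dependent prostate cancer line, and were adapted to growth in medium depleted of androgen, so that they model castration-resistant disease. LN95(KO) was made from it by CRISPR targeting of UGT2B17, which encodes an enzyme that attaches glucuronic acid to androgens. On this origin the sources differ: every sample label gives LN95 as the line, but the design text of the series writes LNCaP for the knockout. They also give different percentages of serum. Libraries came from 2 samples of LNCaP95 (replicates 1 and 2) and 2 of LN95(KO) (replicates 3 and 4), all untreated and all grown in charcoal-stripped serum, which is depleted of steroid hormones. The sources do not say how many knockout clones were used or whether the replicates were separate cultures, so an effect of the knockout and a difference between derived lines cannot be told apart, and spread between replicates may be technical. Depth ranged from 17330338 to 18813193 gene reads, so that a count of 0 in 1 library allows a level of up to 0.159 to 0.173 CPM, counting error only. UGT2B17 itself had 2788 and 2748 reads in LNCaP95 and 21 and 20 in LN95(KO) (log2 fold change -7.04 ± 0.102, SE, edgeR), as the labels of the lines state. The luminal prostate marker KRT8 was abundant in both lines, with 11085 and 11112 reads in LNCaP95 against 14168 and 14233 in LN95(KO). Of the 8 luminal markers listed, KRT8 among them, edgeR called 2 higher and 1 lower (adjusted p under 0.05 and fold over 2). The median log2 fold change over the 8 was -0.07.

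In a cell line, a gene with no detectable transcript is usually one whose promoter or enhancers are inactive in that cell type, and many such genes belong to the programme of another tissue. Luminal prostate cells respond to androgen, and several of the members, such as ZBTB16, MAF and the TARP transcript of the T cell receptor gamma locus, are known as androgen-responsive genes in prostate cells.

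The members spanned a wide range of levels. In LN95(KO), 8 had a mean of at least 100 CPM, 23 had 10 to 100 CPM and 65 had 1 to 10 CPM, with a median of 4.97 CPM. In LNCaP95, 19 members had 0 reads in both libraries, 30 had 1 to 3 reads in the 2 libraries together and 47 had more. Not all were silent in LNCaP95, where KCNMA1, EFNA5, IGF1R and TLR3 had means of 5.99, 6.13, 5.97 and 5.22 CPM, above the median of the members in LN95(KO). Added over all members, levels came to 53.3 and 52.2 CPM in the LNCaP95 libraries and to 2357 and 2204 CPM in the LN95(KO) libraries. In the quasi-likelihood test of edgeR, 95 of the 96 passed the filter on low counts and 95 were called higher (adjusted p under 0.05 and fold over 2), where 8.86% of all 15626 genes tested were called higher. Nothing is read from that count, since the same difference selected the genes.

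**Figure D1:**
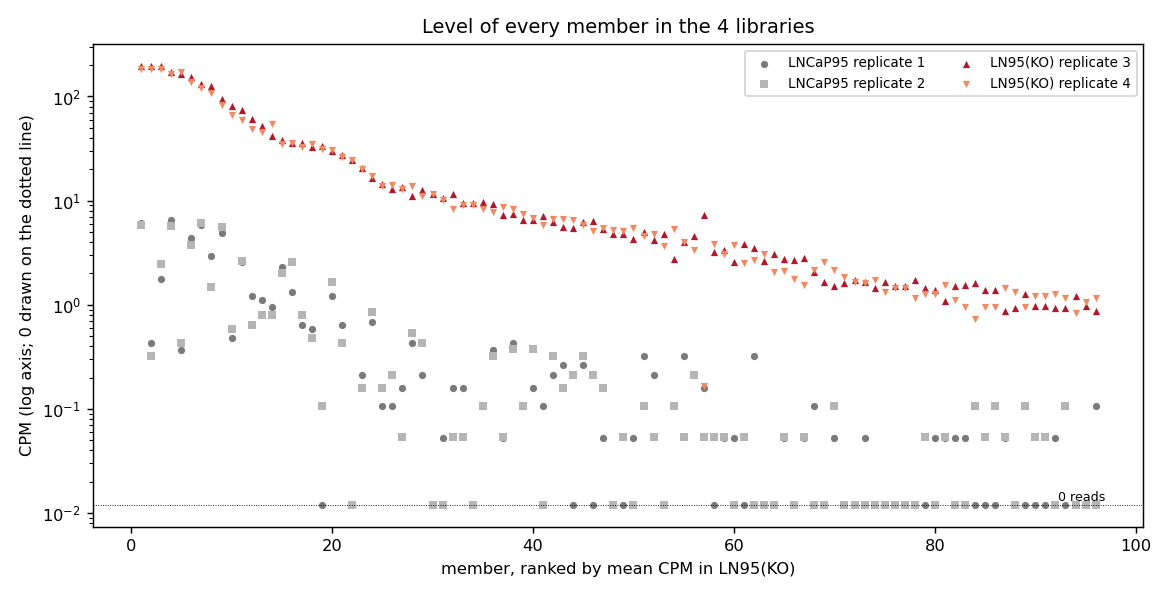
CPM of each member (log axis) in the 4 libraries, with members ranked from left to right by their mean in LN95(KO) and a count of 0 drawn on the dotted line. Triangles of LN95(KO) run from means of 189 CPM down to 1.02 CPM above the grey LNCaP95 points, and 1 member (VARS2) has its replicate 4 value among the LNCaP95 points.

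Most members encode proteins. Protein-coding genes made up 80 of the 96 (83.3%), beside 85.1% of all 13748 genes with a mean of at least 1 CPM in LN95(KO). The others were 10 long noncoding RNAs (10.4%, against 8.82%), 3 pseudogenes (3.12%, against 4.95%), 2 T cell receptor gamma segments and 1 identifier, ENSG00000243135, that matched no gene of the annotation used. The 2 receptor segments were the only such segments among all genes at 1 CPM or more in LN95(KO). Chromosome 2 held 14 members and chromosome 6 held 13, or 14.6% and 13.5%, beside 6.62% and 4.24% of genes at that level, while chromosome 1 held 2 (2.08%, against 10.4%). These shares are descriptions without a test.

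**Figure D2:**
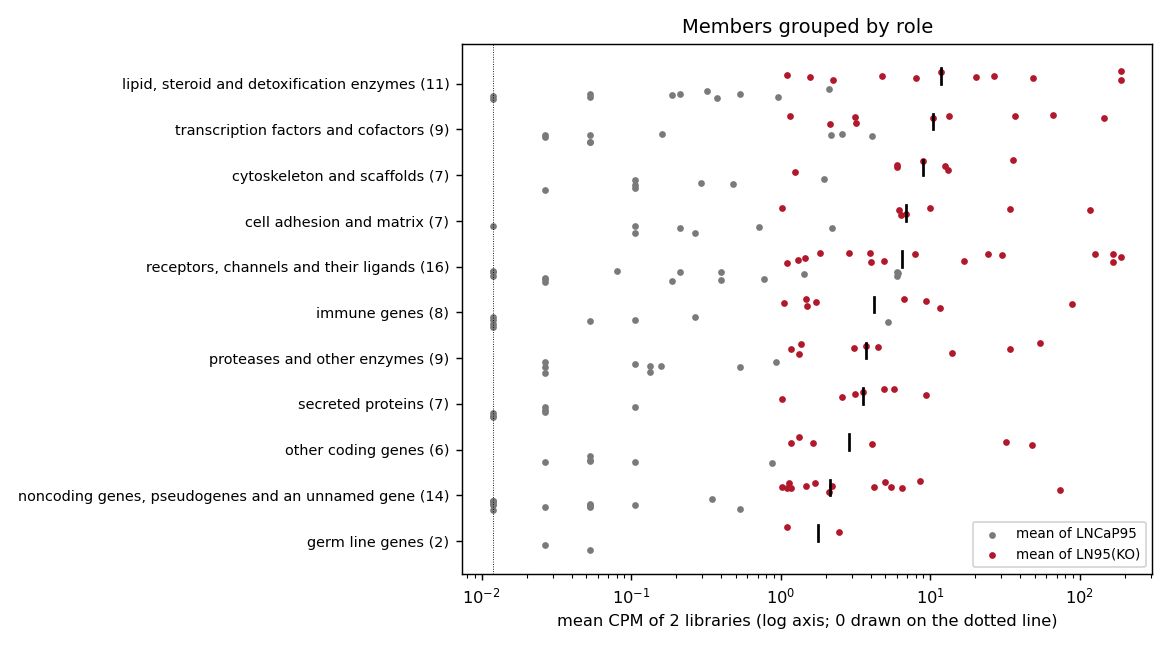
Mean CPM of 2 libraries (log axis) for the members sorted into 11 role groups, with the number of genes in brackets, grey points for LNCaP95, red points for LN95(KO) and a black bar at the LN95(KO) median of each group. Group medians run from 11.9 CPM for lipid, steroid and detoxification enzymes down to 1.77 CPM for germ line genes, and single genes within a group differ far more than the medians do.

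Receptors, channels and their ligands formed the largest coding group, with 16 members. KCNMA1, the pore-forming subunit of the large-conductance calcium-activated potassium channel, had 115 and 110 reads in LNCaP95 and 3398 and 3280 in LN95(KO), or 5.99 ± 0.169 against 189 ± 9.70 CPM (mean ± SD, n = 2 each). IGF1R, the receptor of insulin-like growth factors, had 110 and 114 reads against 2289 and 2175, a 21.2-fold higher mean. Of its growth factor ligands, IGF1 had 24 and 23 reads in LNCaP95 and 23 and 23 in LN95(KO), and IGF2 had 0 in all libraries (both looked up after the values of IGF1R were seen).

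A receptor and ligand pair of the ephrin system, which guides cells through contact between neighbours, was among the highest members. EFNA5, a membrane-anchored ligand, had 123 and 107 reads in LNCaP95 and 2989 and 2926 in LN95(KO). EPHA3, one of its receptors, had 7 and 8 reads against 2841 and 3079, so that its mean rose from 0.400 ± 0.0390 to 168 ± 5.13 CPM, 419-fold. A related receptor, EPHA6, had 23 and 31 reads against 523 and 553. The other Eph receptors, looked up after these values were seen, were divided: edgeR called EPHA2 higher (log2 fold change 1.61 ± 0.114, SE) and EPHA10, EPHB1 and EPHB6 lower (-1.49 ± 0.0874, -4.51 ± 0.587 and -2.67 ± 0.577). Of the ephrins, EFNB2 was called higher (1.18 ± 0.183) and EFNA3 and EFNB3 lower (-1.68 ± 0.0931 and -1.37 ± 0.238). SEMA3C, a secreted guidance factor, had 13 and 16 reads against 287 and 311.

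Adhesion and peptide receptors followed at lower levels. No read of ADGRF1, an adhesion G protein-coupled receptor on chromosome 6 (46965445 to 47010086, minus strand, GRCh37), was counted in LNCaP95, against 425 and 442 reads in LN95(KO), where its mean was 24.5 ± 0.0358 CPM. Set against 3 counts over both LNCaP95 libraries, that is at least 307-fold higher. P2RY1, a receptor for ADP, had 8 and 7 reads against 130 and 151. BMPR1B, a receptor of bone morphogenetic proteins, had 0 and 0 against 46 and 55. PRLR, the prolactin receptor, had 0 and 0 against 30 and 21, at least 18.1-fold higher. GHR, its close relative for growth hormone, had 550 and 602 reads against 523 and 555 (log2 fold change -0.06 ± 0.0787, SE). SCNN1B, a subunit of the epithelial sodium channel, had 1 and 0 reads against 26 and 20. Its genomic neighbour SCNN1G, another subunit, had 0 and 0 against 12 and 15, just under the level asked of members, while SCNN1A was abundant in both lines at 1883 and 1811 against 1129 and 1161.

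Enzymes of lipid, steroid and foreign compound metabolism made up 11 members and had the highest group median, 11.9 CPM. PLA1A, a secreted phospholipase that acts on phosphatidylserine, had 8 and 6 reads in LNCaP95 and 3406 and 3269 in LN95(KO), from 0.373 ± 0.0741 to 189 ± 10.5 CPM, 507-fold. Per kilobase of exon it was at 87.2 CPM, beside a median of 1.80 over the members and 4.70 over all genes with at least 1 CPM in LN95(KO). LPL, lipoprotein lipase, which releases fatty acids from lipoproteins, had 33 and 46 reads against 3401 and 3270. Both were thus among the 3 highest members, with KCNMA1. PLA2G7, which hydrolyses platelet-activating factor, had 4 and 3 reads against 354 and 359.

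Enzymes that conjugate or oxidise steroids and drugs were spread over a wider range. UGT1A1, the bilirubin-conjugating relative of UGT2B17, had 21 and 15 reads in LNCaP95 and 905 and 827 in LN95(KO). In the annotation used here, a later release than that of the counts, UGT1A1 shares 50.1% of its exon bases with other genes of the UGT1A locus, and how many of its reads the counting left out for this is not known. The other coding UGT1A genes matched by name (UGT1A4, UGT1A6, UGT1A7, UGT1A8, UGT1A9 and UGT1A10) stayed at 8 reads or fewer per library. UGT1A3 and UGT1A5 were not matched by name in the annotation used, so their counts are not known here. Among the UGT2B genes, UGT2B28 was called higher (5 and 11 reads against 89 and 120), UGT2B4 higher (17 and 18 against 73 and 63) and UGT2B15 lower (430 and 361 against 68 and 86). UGT2B11 had the most reads of them in LN95(KO), 3266 and 3151 against 5083 and 6026. Its rise was under the fold of 2 asked of a call (log2 fold change 0.82 ± 0.0594, SE). GSTA2, a glutathione transferase, had 12 and 8 reads against 476 and 468. Its neighbour and close copy GSTA1, not a member, had 666 and 555 against 5526 and 5428, and 9.80% of the 100-base windows of GSTA2 transcripts also occur in another gene. CYP11A1, which makes pregnenolone from cholesterol, had 0 and 0 reads against 47 and 32, at least 28.0-fold higher, though 27.0% of its exon bases are shared. DHRS2, a dehydrogenase, had 1 and 1 reads against 127 and 156, a ratio of 150 with a 95% counting interval of 41.3 to 1248.

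Transcription factors and cofactors numbered 9. MAF, a basic leucine zipper factor, had 83 and 71 reads in LNCaP95 and 2655 and 2480 in LN95(KO), or 4.10 ± 0.439 against 146 ± 10.8 CPM. AFF3, a nuclear protein of the super elongation complex family, had 48 and 49 reads against 1275 and 1075. GREB1, a hormone-induced cofactor best known in breast cancer cells, had 43 and 38 against 662 and 635. SNAI2, a repressor of epithelial genes also known as Slug, had 2 and 4 reads against 222 and 252. ZBTB16, also known as PLZF, had 1 and 0 reads against 183 and 183, a ratio of 389 with a 95% counting interval of 69.4 to 15408. The width of that interval comes from the single LNCaP95 read.

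Adhesion and matrix genes were 7. TENM1, a teneurin that links neurons, had 55 and 28 reads in LNCaP95 and 2177 and 1942 in LN95(KO), and its LNCaP95 replicates lay well apart around their mean of 2.21 ± 1.01 CPM. DLG2, a synaptic scaffold, had 12 and 15 reads against 622 and 590. NRCAM, a neuronal adhesion molecule, had 2 and 2 against 112 and 133. SPARCL1 and SPARC, matricellular proteins, had 3 and 1 against 200 and 149, and 5 and 3 against 97 and 121. In the neuronal and neuroendocrine marker list of 18 genes, 5 could be tested and all 5 had a log2 fold change below 0 in edgeR, which called 3 of them lower, ENO2 and NCAM1 among them. The summed level of the list was 72.7 and 71.5 CPM in LNCaP95 against 29.8 and 30.2 CPM in LN95(KO). Most of that fall came from ENO2, with 875 and 835 reads against 223 and 217.

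Among 8 immune genes, TLR3, the sensor of double-stranded RNA, was highest, at 92 and 104 reads in LNCaP95 against 1631 and 1482 in the knockout line. TRGC1, a constant segment of the T cell receptor gamma chain on chromosome 7 (38297480 to 38305279, minus strand, GRCh37), had 0 and 0 reads against 202 and 207, at least 145-fold higher, and TRGV10 had 0 and 0 against 28 and 33. Prostate cells are known to transcribe TARP from this locus without a rearranged receptor. Other T cell markers were almost absent: of 16, 7 (CD3D, CD3E, CD8A, CD8B, TRBC2, TRDC and IL7R) had no read in any library, and the whole list summed to 0.267 to 0.778 CPM per library. All exon bases of TRGV10 and 35.4% of those of TRGC1 lie under other annotated genes. IL36RN, an antagonist of interleukin 36, had 3 and 1 reads against 166 and 163. IFI44 had 0 and 0 against 29 and 24, while of 17 interferon response genes tested, 3 were called higher and 1 lower, with a median log2 fold change of 0.23 beside -0.01 over all genes.

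Secreted proteins with narrow tissue ranges included CRISP3, a cysteine-rich protein of the male reproductive tract, which had 164 and 165 reads in LN95(KO) and none in LNCaP95 and so was at least 117-fold higher. TTR, the thyroxine carrier made by liver, had 0 and 4 reads against 111 and 92. Of the 12 genes in the hepatocyte list, 2 could be tested, TTR itself and CPS1, which was lower (182 and 198 against 66 and 61), and ALB had 1 read in all libraries together. ADAM7, a catalytically inactive metalloprotease relative of epididymis, had 23 and 12 reads against 1051 and 874. PGC, the pepsinogen also secreted by prostate, had 2 and 3 against 250 and 246. A pair of nearly identical alpha tubulins, TUBA3D and TUBA3E, had 8 and 10 against 193 and 251 and 2 and 2 against 168 and 149. About 20.8% and 20.2% of their 100-base windows are found in another gene, so reads may have been lost or exchanged between them.

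Long noncoding RNAs were led by COLCA1, which had 9 and 11 reads in LNCaP95 against 1389 and 1196 in the knockout line, 138-fold. ADAM7-AS2, antisense to ADAM7, had 2 and 0 against 123 and 106, ENSG00000259656 had 1 and 3 against 93 and 99, SCIRT had 0 and 0 against 83 and 94, and TM4SF18-AS1 had 1 and 1 against 49 and 28. Counting did not use strand, so reads of an antisense gene and its partner cannot be told apart where they overlap; 15.5% of ADAM7-AS2 exon bases and 22.5% of those of TM4SF18-AS1 are shared. The pseudogenes were PUDPP2 (7 and 6 against 161 and 139 reads), ZNF812P (0 and 0 against 82 and 66) and ENSG00000232599 (0 and 0 against 30 and 30). Their shared exon bases reach 59.9%, 91.7% and 95.1%, and the last overlaps the start of TENM1. How the counting divided reads between these overlapping genes cannot be told from the counts. FAM110B, a coding gene on chromosome 8 (58907082 to 59116838, plus strand, GRCh37) for a centrosome-associated protein, had 0 and 2 reads against 578 and 560, a ratio of 605 with a 95% counting interval of 167 to 5000.2.

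Members lay together at several places. Counting members no more than 500 kb apart, 20 members fell into 8 groups. The largest held 5 within 493 kb of chromosome 6, positions 46517317 to 47010086 of GRCh37: CYP39A1, TDRD6, PLA2G7, ADGRF5 and ADGRF1. CYP39A1, an oxysterol hydroxylase, had 4 and 8 reads against 220 and 200. TDRD6, a protein of germ granules, had 1 and 1 against 48 and 38. Its span ends at 46672056, past the start of the PLA2G7 span at 46671938 on the other strand. Exon bases shared with any other gene were 3.88% for TDRD6 and 5.78% for PLA2G7. Since counting did not use strand, reads there cannot be told apart, and their part in these counts was not tested. ADGRF5, a second adhesion receptor, had 0 and 1 against 82 and 92. These 5 run from 2.44 ± 0.465 CPM for TDRD6 to 24.5 CPM for ADGRF1 in LN95(KO).

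Genes between and around these 5 were uneven. SLC25A27, whose start lies 0.085 kb from that of CYP39A1 on the other strand, was called higher by a smaller amount, with 91 and 79 reads against 210 and 189 (log2 fold change 1.26 ± 0.146, SE, edgeR adjusted p = 9.93e-07). ANKRD66 had 0 and 0 against 3 and 6, and MEP1A had no read. On the far side of ADGRF1, TNFRSF21 and CD2AP were expressed in both lines and were higher by less than the fold of 2 asked of a call (log2 fold changes 0.85 ± 0.0842 and 0.35 ± 0.0557), and ADGRF4 was called higher from 2 and 1 to 13 and 11 reads. On the side of CYP39A1, RCAN2, ENPP4 and ENPP5 were lower, also by less than that fold (-0.99 ± 0.361, -0.67 ± 0.0811 and -0.56 ± 0.0923). RCAN2, the nearest of these, had 24 and 29 reads against 17 and 9.

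**Figure D3:**
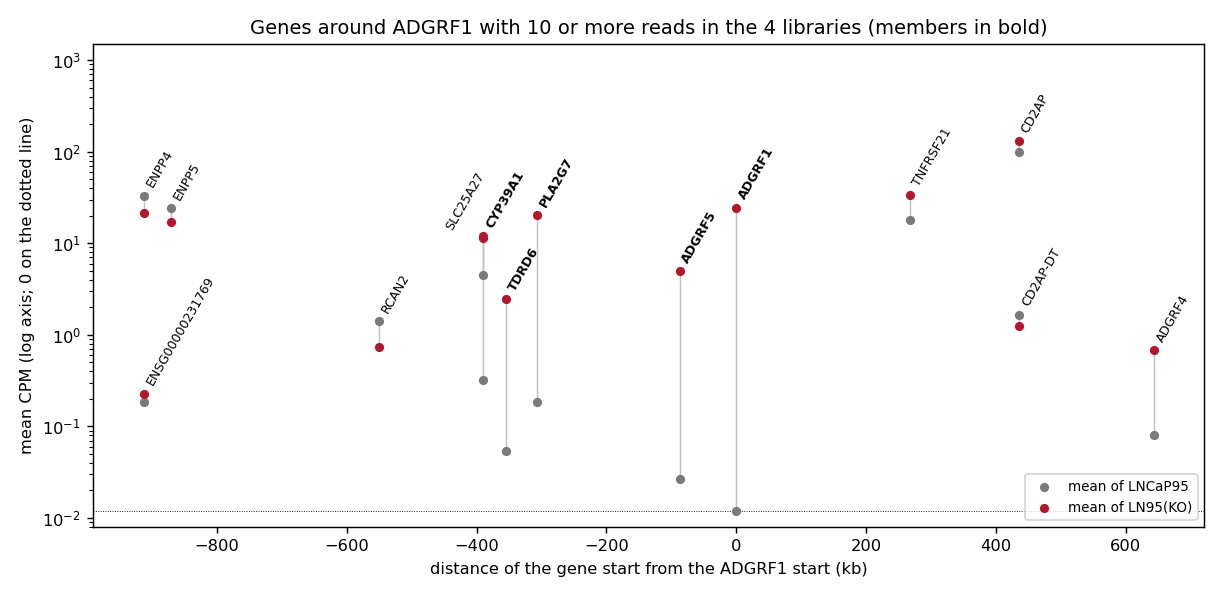
Mean CPM (log axis) in LNCaP95 (grey) and LN95(KO) (red) of genes with 10 or more reads around ADGRF1, placed by the distance of each gene start from the ADGRF1 start in kb, with members in bold and 0 on the dotted line. The 5 members sit in a stretch bounded by RCAN2 on the left and TNFRSF21 on the right, whose points lie closer together than those of the members.

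The promoters of these 5 genes are shown because they lie close together and yet differ in base composition. Each is the RefSeq window of 300 bases, 250 before the start and 50 after it, read on the strand of the gene, in GRCh38.p14 coordinates. Capitals mark any match, on either strand, to the 8 motifs searched: TATAAA (the TATA box), AGAACA (a steroid hormone response half-site), TGTTTAC (forkhead), GGGCGG (GC box), CCAAT (the motif of the factor NF-Y), CACGTG (the E box motif), TGACGTCA (the motif of cyclic AMP responses) and TGACTCA (AP-1). A match describes letters only.
CYP39A1 (chr6:46652769-46653068, minus strand): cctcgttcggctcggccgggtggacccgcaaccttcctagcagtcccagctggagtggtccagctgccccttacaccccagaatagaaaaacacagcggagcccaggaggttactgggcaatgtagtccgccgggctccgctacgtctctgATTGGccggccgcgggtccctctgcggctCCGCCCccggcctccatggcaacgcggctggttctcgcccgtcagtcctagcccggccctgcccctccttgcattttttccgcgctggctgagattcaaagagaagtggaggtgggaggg
TDRD6 (chr6:46687635-46687934, plus strand): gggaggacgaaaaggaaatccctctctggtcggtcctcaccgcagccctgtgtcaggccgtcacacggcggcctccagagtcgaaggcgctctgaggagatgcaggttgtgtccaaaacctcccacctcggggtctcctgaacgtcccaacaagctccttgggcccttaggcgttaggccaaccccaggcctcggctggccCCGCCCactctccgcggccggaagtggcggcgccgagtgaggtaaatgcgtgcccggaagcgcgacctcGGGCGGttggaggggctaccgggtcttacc
PLA2G7 (chr6:46735672-46735971, minus strand): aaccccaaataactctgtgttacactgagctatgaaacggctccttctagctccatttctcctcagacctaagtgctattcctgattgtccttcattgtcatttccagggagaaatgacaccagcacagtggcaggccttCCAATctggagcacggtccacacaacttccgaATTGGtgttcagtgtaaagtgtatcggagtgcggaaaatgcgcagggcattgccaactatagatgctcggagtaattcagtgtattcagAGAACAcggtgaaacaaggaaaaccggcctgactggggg
ADGRF5 (chr6:46954890-46955189, minus strand): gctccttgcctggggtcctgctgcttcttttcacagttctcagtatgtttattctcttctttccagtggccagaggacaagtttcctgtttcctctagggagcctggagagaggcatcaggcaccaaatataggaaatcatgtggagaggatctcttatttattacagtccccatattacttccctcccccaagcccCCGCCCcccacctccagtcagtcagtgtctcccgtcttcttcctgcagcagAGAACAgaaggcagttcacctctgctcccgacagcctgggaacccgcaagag
ADGRF1 (chr6:47042283-47042582, minus strand): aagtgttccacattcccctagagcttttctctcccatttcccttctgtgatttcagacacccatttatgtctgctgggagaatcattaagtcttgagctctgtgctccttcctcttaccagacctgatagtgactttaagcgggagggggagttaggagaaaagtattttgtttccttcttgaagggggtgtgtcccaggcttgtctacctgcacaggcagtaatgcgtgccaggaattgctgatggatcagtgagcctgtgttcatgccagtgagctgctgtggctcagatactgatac

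GC content was 65.3% for CYP39A1 and 66.3% for TDRD6, 48.3% for PLA2G7, 53.0% for ADGRF5 and 48.3% for ADGRF1. The observed over expected CpG ratio was 0.722, 0.788, 0.514, 0.197 and 0.114 in the same order, so the adhesion receptor windows held few CpG sites. GGGCGG was found in CYP39A1, TDRD6 and ADGRF5 (44.6% of all 27305 RefSeq promoters hold it), CCAAT in CYP39A1 and PLA2G7 (35.7%), and AGAACA in PLA2G7 and ADGRF5 (14.9%). The ADGRF1 window held none of the 8 motifs. A check of such features over the whole set is void, since 66 of the 96 members, under 80%, have a promoter in the table used.

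The other groups were smaller. SCGB2A1, SCGB1D2 and ASRGL1 lie within 185 kb of chromosome 11. SCGB1D2 and SCGB2A1, secretoglobins secreted by glandular epithelia, had 1 and 0 reads against 75 and 99, and 1 and 0 against 45 and 67, while their relative SCGB2A2 had 1 read in each line. ASRGL1, an asparaginase, had 11 and 9 against 569 and 634. Also together were ZBTB16 with NNMT, which methylates nicotinamide (0 and 2 against 22 and 17), TRIM54 with GCKR on chromosome 2 (5 and 6 against 107 and 104, and 0 and 1 against 24 and 17), GRPR, the receptor of gastrin-releasing peptide (1 and 2 against 26 and 39), with ENSG00000238178, and the pairs of TRGC1, ADAM7 and TENM1 named above. In the last 2 of those pairs and in that of GRPR the annotated exons of the partners overlap.

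For each member, the nearest protein-coding gene on each side that did not overlap it and was no member was examined, 175 genes in all. Of these, 114 could be tested, and edgeR called 22 higher (19.3%) and 8 lower (7.02%), beside 8.86% and 9.13% of all genes tested. Over the 12597 protein-coding genes tested, the shares were 8.55% and 8.45%. Their median log2 fold change was 0.20, beside -0.01 over all genes. Within 100 kb of a member, 20 of 78 were higher (25.6%) and 5 lower (6.41%). Some of the neighbours that were higher are relatives of the member beside them, such as GSTA1 beside GSTA2, SCNN1G beside SCNN1B, CRISP2 beside CRISP3 (0 and 1 reads against 13 and 22) and PLA2G4D beside PLA2G4E (5 and 2 against 24 and 19), which were picked out after their values were seen. Around the 10 members with the highest CPM, 1 neighbour was higher (FAM149A beside TLR3, log2 fold change 1.33 ± 0.127, adjusted p = 9.44e-08 in edgeR) and 1 lower (PROS1, 4061 kb from EPHA3, -1.51 ± 0.0753, adjusted p = 1.58e-11).

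**Figure D4:**
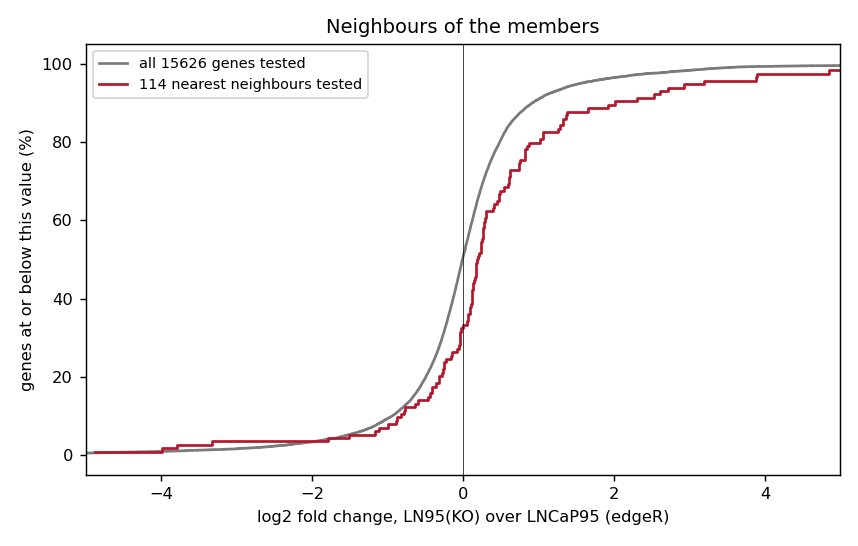
Share of genes (percent) at or below each log2 fold change of LN95(KO) over LNCaP95 in edgeR, for all 15626 genes tested (grey) and the 114 neighbours tested (red). The red curve lies to the right of the grey one over most of the range, with medians of 0.20 and -0.01.

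Gene lists were compared with the members by count. The androgen response list held 4 members, ZBTB16, MAF, TRGC1 and BMPR1B, and 8 genes that met the values before the 5 named genes were set aside. Of its 58 genes tested, edgeR called 38 higher and 5 lower, UGT2B17 itself among the lower, beside 8.86% and 9.13% of all genes tested. The median log2 fold change of the list was 1.65. This list was written with earlier results of these data known and is no independent evidence of its direction. ZBTB16 is also in the list of glucocorticoid and progesterone targets, as its only member. Of the 15 genes tested in that list, edgeR called 4 higher and 3 lower, with a median log2 fold change of -0.14. The mitosis list held no member once AURKB, which met the values, was set aside, although 31 of its 31 genes were called higher (median 3.08). Of the endothelial list, 1 gene could be tested (VWF, 8 and 8 reads against 49 and 58, called higher) and the list summed to 0.691 and 0.748 CPM against 3.06 and 3.89. The fibroblast list summed to 47.3 and 46.7 CPM against 177 and 164, most of the rise from VIM (292 and 303 reads against 2393 and 2319). Of its 5 genes tested, edgeR called VIM and PDGFRB higher and LUM lower (24 and 19 reads against 0 and 0), and DCN and PDGFRA had no read in any library. The basal prostate list summed to 66.8 and 67.8 against 114 and 105 CPM, almost all of it ITGA6 (1245 and 1258 reads against 1939 and 1856, log2 fold change 0.63 ± 0.0577, SE, under the fold asked of a call). KRT14 was called higher (1 and 2 reads against 17 and 20), and KRT5, KRT15, TP63, NGFR, CD44 and KRT17 had 5 reads or fewer in every library. The B cell list stayed at or below 0.577 CPM and the myeloid list at or below 0.635 CPM. Their part in the levels of SPARC, KRT6C or other members was not tested.

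The LN95(KO) libraries were also set against each other. The rule used their mean, so that 1 high library can admit a gene, and the counts of members below are a description. An exact two-sided binomial test of replicate 3 against replicate 4 called 14 of the 96 members (14.6%), 12 higher in replicate 3 and 2 higher in replicate 4, where 6.83% of 17016 genes with 10 or more reads were called. The count of members depends on scaling. With TMM-scaled library sizes the test called 11 of the 96, while the count over all genes went from 1163 to 1243. Calls depend on depth: 6 of the 8 members with at least 100 CPM were called, and 27.6% of all 2035 genes at that level. For 87 members the libraries lay within 1.5-fold of each other. The test measures counting error between libraries only.

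VARS2 stood apart. This mitochondrial valyl-tRNA synthetase had 3 and 1 reads in LNCaP95 and 127 and 3 in LN95(KO) and so met the rule through replicate 3 alone and was no longer a member without that library. It was also the member that edgeR's filter removed. Its cytosolic relative VARS1, looked up afterwards, showed the reverse, with 3 and 5 reads in LNCaP95 and 4 and 94 in LN95(KO). About 63.0% of VARS2 exon bases are shared with another annotated gene. GTF2H4, a subunit of the general transcription factor TFIIH that lies 0.099 kb from VARS2, had 0 reads in all 4 libraries, so a low count at this locus need not mean a low transcript level. The part of read mapping and counting there was not tested. MALL, a membrane protein of the MAL family, had 48 and 96 reads in LN95(KO) against 2 and 2 in LNCaP95. CRYBG1 was likewise higher in replicate 4 (726 and 982 reads), and AFF3, ADAM7 and SPARCL1 were higher in replicate 3 by 1.23-fold, 1.25-fold and 1.39-fold.

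**Figure D5:**
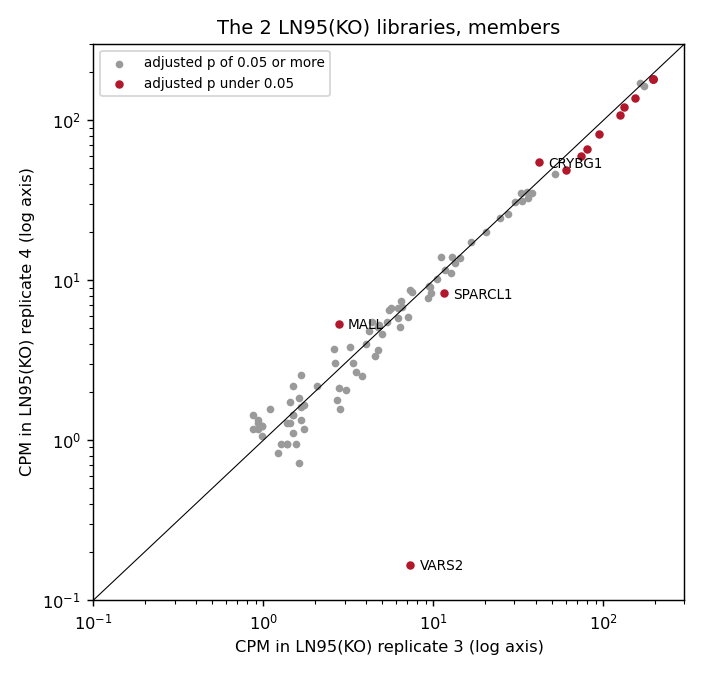
CPM of each member in LN95(KO) replicate 3 (x axis) and replicate 4 (y axis), both log axes, with the line of equal levels and red points for members that the exact binomial test called different. Nearly all points follow the line, and VARS2 lies far below it at 7.33 CPM in replicate 3 and 0.167 CPM in replicate 4.

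At the edge of the rule, among members with LNCaP95 reads, the 5 with the smallest folds were TLR3 (16.9), GREB1 (17.04), RND3 (18.3), UNC80 (18.5) and ENSG00000238178 (19.1, with a 95% counting interval of 4.93 to 164). Members without LNCaP95 reads have bounds only, the lowest of which were 12.8 for CADM2 and SERPINF2. Just outside were FAM72C (15.9), DEPDC1B (15.9), ACSM1 (15.5), MAP2 (15.5) and ARHGAP28 (15.3). RND3, an atypical small GTP-binding protein that does not hydrolyse GTP, had 25 and 48 reads in LNCaP95 and 620 and 640 in LN95(KO), and MAP2, a neuronal microtubule protein, had 41 and 60 against 702 and 768. MAP2 is also the neighbour of UNC80, and ARHGAP28 that of LAMA1.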

How the data were processed

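The authors deposited raw read counts for every gene, made from poly(A) RNA-Seq with HISAT2 (version 2.1.0) on hg19 and HTSeq on a GENCODE annotation, with strand not used according to the file names. The table of the series and the files of single libraries differed in 0 cells. Summary lines (23.8% to 27.5% of entries) were left out. CPM was computed by library totals. Coordinates came from GENCODE release 44 on GRCh37, and promoters from RefSeq (GRCh38.p14, first listed per gene). The main test was edgeR 4.0.16 quasi-likelihood (TMM, robust, filterByExpr with minimum count 10 and total 15, R 4.3.3), with Benjamini-Hochberg adjustment over 15626 genes. The edgeR test was tested on simulated data. DESeq2 1.42.0 was an alternative. Libraries of LN95(KO) were compared with exact binomial tests (SciPy). Folds against 0 reads are bounds against 3 counts pooled over the group, and with 1 to 3 reads are pooled ratios with exact 95% intervals, counting error only. The members, roles and lists were chosen with earlier results of these data known. Named genes were UGT2B17, the markers ADGRF1, TRGC1 and FAM110B, the 20 highest members, the 10 highest with 0 LNCaP95 reads, the 5 highest noncoding RNAs and 3 pseudogenes, up to 4 members per list or family, grouped members, genes at the edge of the rule, neighbours of the 10 highest members, and members whose LN95(KO) libraries differ most. Others were chosen after their values were seen. A few genes of the lists are not reported here by name.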

Additional observations from a re-analysis of the deposited data

How the results depend on the processing

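No paired analysis was possible because no replicate number occurs in both lines. The number of members followed the fold asked of them: it was 255 at a ratio of 1/8, where the 96 were all included, and 68 at 1/32. Floors of 0.5 and 2 CPM gave 135 and 69, and scaling by TMM or DESeq2 size factors 94 and 93. Leaving out 1 library gave 92 to 115 members, of which 87 to 92 were among the 96; VARS2 was lost without LN95(KO) replicate 3. The count of genes called higher was 845 when tested against a fold of 2 with glmTreat, 1133 with DESeq2, and 1218 to 1357 with 1 library left out. Of the neighbours, 17 to 26 were called higher with 1 library left out and 21 with DESeq2. Among the 66 members with a promoter, 36.4% were rich in CpG (ratio over 0.6 and GC over 50%) and 24.2% under the stricter limits of 0.75 and 55%. The shares were 79.3% and 62.5% for tested genes with a promoter, and 46.8% and 35.1% for all RefSeq promoters. At this coverage the check is void and nothing is read from the difference. Depth limits most members: 19 have 0 LNCaP95 reads and 30 have 1 to 3, and their folds are bounds or have wide intervals. The cause of these changes was not tested beyond what each setting alters.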
